A study of Mus musculus with 20 samples.

Results

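The goblet cell mucus genes are the 8 genes Muc2, Tff3, Clca1, Fcgbp, Zg16, Agr2, Spink4 and Tpsg1. They were found by name among the 25118 gene symbols on the array, and 10 probes of them were present, with 2 each for Muc2 and Fcgbp. Their transcripts were measured on 1-colour Agilent microarrays with RNA of intestinal tissue from 20 C57BL6/j mice, and the labels give 1 animal number to each array. The 6 Cre control mice carried VillinCreER, a Cre recombinase that tamoxifen switches on and that the Villin promoter drives in the gut epithelium. The 6 BRAFV600E mice carried in addition 1 inducible copy of the mutant kinase allele. Both of these groups were 8 to 12 weeks old, received 3 daily doses of 2 mg tamoxifen, and gave tissue 3 days after the last one. The 4 MEKi mice received PD184352, an inhibitor of MEK, the kinase directly below BRAF, and the 4 Vehicle mice received its carrier. They had 2 tamoxifen injections followed by 3 daily injections of inhibitor or carrier. The legends of the study, not the sample labels, give these 8 mice the mutant allele, and their age is not stated separately. The first comparison asks what expression of the mutant kinase changes within days, and the second what blocking MEK changes.

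Goblet cells are secretory cells of the gut epithelium that fill granules with mucus and release them into the lumen. Muc2 is the gel-forming mucin that builds the intestinal mucus layer, and it is folded in the endoplasmic reticulum with the help of the disulfide isomerase Agr2. Fcgbp, Zg16 and Clca1 are released with it: Fcgbp is a large protein with von Willebrand domains that lies in the mucus, Zg16 is a lectin that binds bacterial cell walls, and Clca1 is a secreted protease that processes the mucus. Tff3 is a small trefoil peptide linked to epithelial repair, and Spink4 belongs to the Kazal family of protease inhibitors. Tpsg1 is a membrane-anchored tryptase, a type of protease otherwise known from mast cells. The tissue was a bulk sample, so fewer goblet cells and less RNA per goblet cell cannot be told apart in any value below.

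The probe that stood for Muc2 lies at chr7:148940536-148940595 on the plus strand of mouse build mm9, at base 7304 of its transcript. Its other probe lies upstream, at chr7:148883009-148883068 and base 1986 of the transcript, and was much dimmer: its processed signal reached 623 at most, against at least 47151 for the first. The last 30 of 60 bases of both probes are shown because they place the 2 measurements on the transcript. Capitals mark AATAAA, the polyadenylation signal, found in the bright probe.
Muc2 bright probe: tgctttccgatAATAAActcaggcatagcc
Muc2 dim probe: agatcttcatgtacaacctgaccacttgcc
The other members were read at chr17:31262279-31262338 (Tff3), chr3:144667558-144667617 (Clca1), chr7:28905517-28905576 (Fcgbp, with a further probe at chr7:28873024-28873083), chr7:134193837-134193896 (Zg16), chr12:36730506-36730565 (Agr2), chr4:40876206-40878330 (Spink4, across spliced exons) and chr17:25511199-25511258 (Tpsg1). All coordinates are those of the files, on mm9, and the exon or UTR around each probe was not analysed here. A single spot, that of Spink4 in BRAFV600E replicate 2, was marked as an outlier and left out, and every other member probe was well above background on all 20 arrays.

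RefSeq promoter windows were at hand for 4 members, Muc2, Fcgbp, Agr2 and Tpsg1, on build GRCm38.p6. The 250 bases before the start are printed for Muc2 and Fcgbp, which lay lower in BRAFV600E tissue, and for Agr2, which rose. The windows are chr7:141690090-141690339 (Muc2), chr7:28070986-28071235 (Fcgbp) and chr12:35992675-35992924 (Agr2), each on the plus strand and read 5′ to 3′. Capitals mark every match, on either strand, to 1 of 8 motifs: TATAAA for the TATA box, TGTTTAC for forkhead factors, AGATAA for GATA factors, CAGCTG for the E-box, TGANTCA for AP-1, CCGGAA for ETS factors, CCACCC for Kruppel-like factors and TTTATG for CDX factors.
Muc2: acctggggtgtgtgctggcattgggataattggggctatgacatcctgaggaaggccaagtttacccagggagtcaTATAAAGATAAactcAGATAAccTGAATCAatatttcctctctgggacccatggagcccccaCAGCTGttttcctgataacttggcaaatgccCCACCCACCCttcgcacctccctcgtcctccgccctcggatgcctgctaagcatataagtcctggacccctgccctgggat
Fcgbp: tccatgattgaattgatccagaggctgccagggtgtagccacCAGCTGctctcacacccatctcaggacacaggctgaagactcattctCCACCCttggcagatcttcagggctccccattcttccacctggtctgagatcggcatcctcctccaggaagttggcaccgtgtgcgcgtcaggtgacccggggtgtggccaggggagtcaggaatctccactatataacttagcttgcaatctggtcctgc
Agr2: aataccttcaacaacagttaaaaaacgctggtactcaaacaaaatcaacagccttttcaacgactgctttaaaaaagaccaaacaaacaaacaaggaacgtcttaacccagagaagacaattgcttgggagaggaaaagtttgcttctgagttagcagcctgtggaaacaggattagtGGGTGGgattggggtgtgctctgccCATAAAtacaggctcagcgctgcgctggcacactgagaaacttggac
The Muc2 window held TATAAA once, 174 bases before the start, where it shares a base with the first AGATAA. It also held AGATAA at 2 places, TGAATCA and CAGCTG once each and CCACCC at 2 overlapping places. The Fcgbp window held 1 CAGCTG and 1 CCACCC. The Agr2 window held GGGTGG, which is CCACCC on the other strand, and CATAAA, which is the CDX motif on the other strand. Of all 32851 promoter windows of this length, 13.0% held CAGCTG, 28.1% CCACCC, 9.99% AGATAA, 12.4% TATAAA, 10.8% the CDX motif and 6.75% the AP-1 motif, while TGTTTAC (3.17% of windows) and CCGGAA (12.0%) were in none of the 3. CAGCTG was shared by Muc2 and Fcgbp, and CCACCC was in all 3. Such matches describe letters, not bound sites.

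Levels are given as the log2 of the processed signal minus the 75th percentile of the array, so that 0 stands for that percentile. Levels of different genes come from different probes and are not compared with each other. A gene was called where its limma adjusted p (Benjamini-Hochberg over all genes tested, two-sided) was under 0.05. The number of arrays limits the precision. Between 36032 and 45518 spots per array were well above background and 0 member spots were saturated. The 75th percentile itself differed between groups, from 540 to 1258 in Cre control and from 873 to 1554 in BRAFV600E.

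In BRAFV600E tissue, 3 of the 8 mucus genes fell, 1 rose and 4 did not pass the test. The genes that fell were Muc2, Tff3 and Zg16, and the gene that rose was Agr2. Of the 19070 genes tested, 12.4% were called, 6.28% lower and 6.17% higher. An unadjusted limma p under 0.05 was found for 5 of the 8 mucus genes and for 5743 of all 19070. The median log2 difference of the 8 genes was -0.58, and that of all genes tested was -0.02. The groups did not overlap for 1 member, Zg16, while 7.36% of all genes had groups that did not overlap.

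**Figure D1:**
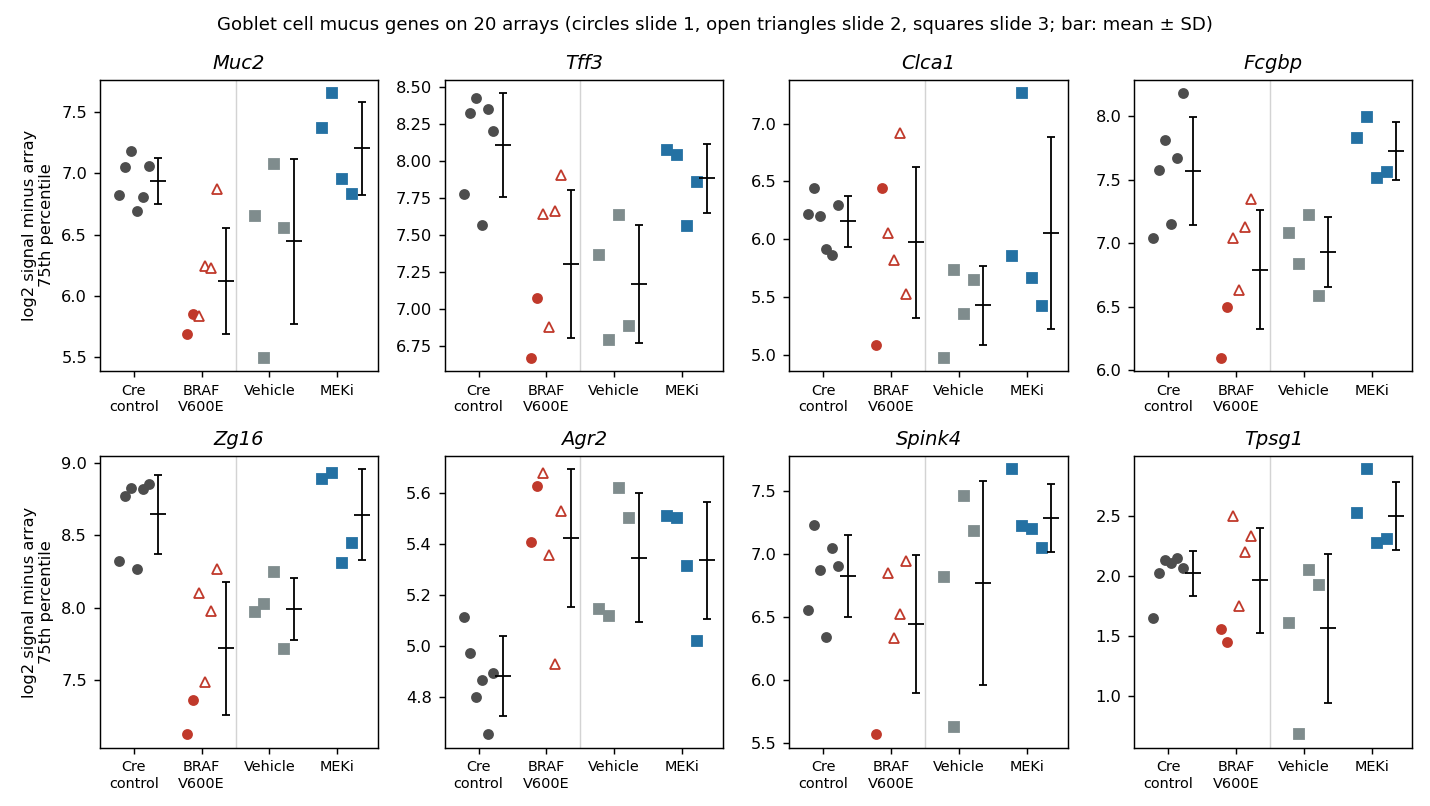
Level of each of the 8 mucus genes (log2 signal minus the 75th percentile of the array) on every array, by group. Circles are slide 1, open triangles slide 2 and squares slide 3, and the bar gives the mean ± SD. All 6 BRAFV600E arrays lie under the lowest Cre control array for Zg16, and 5 of 6 lie above the highest for Agr2.

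Zg16, the bacteria-binding lectin, ranged from 8.27 to 8.86 in Cre control (median 8.80, mean 8.64 ± 0.27 SD, n = 6). In BRAFV600E it ranged from 7.12 to 8.27 (median 7.73, mean 7.72 ± 0.46 SD, n = 6). Every BRAFV600E array thus lay under every Cre control array, although the nearest arrays of the 2 groups were almost equal. The log2 difference was -0.93 (SE 0.21, 95% interval -1.39 to -0.47), or 1.90-fold lower, with an adjusted p of 0.0163 from limma. An exact permutation test of this gene alone gave p = 0.00216 (two-sided), the smallest value the design allows.

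Muc2, the mucin itself, ranged from 6.69 to 7.19 in Cre control (median 6.94, mean 6.94 ± 0.19 SD, n = 6). In BRAFV600E it ranged from 5.69 to 6.87 (median 6.04, mean 6.12 ± 0.43 SD, n = 6). Of the BRAFV600E arrays, 5 lay under the lowest Cre control array, and the remaining one, replicate 6, lay within the range of the controls. Muc2 fell by 0.82 on the log2 scale (SE 0.19, 95% interval -1.23 to -0.40), which is 1.76-fold, with a limma adjusted p of 0.018. The exact permutation p was 0.00866. The dim upstream probe of Muc2 gave -0.59 (SE 0.39), with an adjusted p of 0.347 when every probe was tested.

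Tff3, the trefoil peptide, ranged from 7.56 to 8.42 in Cre control (median 8.26, mean 8.11 ± 0.35 SD, n = 6). Its BRAFV600E range was 6.67 to 7.90 (median 7.36, mean 7.30 ± 0.50 SD, n = 6). The groups overlapped, with 3 of 6 BRAFV600E arrays under the lowest control and all 6 under the control mean. The log2 difference was -0.80 (SE 0.24, 95% interval -1.32 to -0.29), with a limma adjusted p of 0.0452 and an exact permutation p of 0.0152. This call was close to the threshold, and leaving out 1 array at a time kept it in 4 of 12 cases (range of the difference -0.92 to -0.67).

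Fcgbp had a difference of the same size that missed the threshold. It ranged from 7.04 to 8.18 in Cre control (median 7.62) and from 6.10 to 7.35 in BRAFV600E (median 6.84), and all 6 BRAFV600E arrays lay under the control mean. The log2 difference was -0.78 (SE 0.25, 95% interval -1.31 to -0.25) with a limma adjusted p of 0.0552, and its exact permutation p was 0.0152. Its further probe, at -0.53 (SE 0.22, adjusted p of 0.135 when every probe was tested), pointed the same way.

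Agr2, the isomerase that folds Muc2, was the member that rose. It ranged from 4.66 to 5.12 in Cre control (median 4.88, mean 4.88 ± 0.16 SD, n = 6) and from 4.93 to 5.68 in BRAFV600E (median 5.47, mean 5.42 ± 0.27 SD, n = 6). All BRAFV600E arrays but replicate 5 lay above the highest control. Agr2 rose by 0.54 (SE 0.14, 95% interval 0.23 to 0.85), or 1.45-fold, with a limma adjusted p of 0.0303 and an exact permutation p of 0.00649. It was called in 5 of the 12 fits that left out 1 array, with differences between 0.49 and 0.63.

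The other members did not pass the test in BRAFV600E tissue. Spink4, the protease inhibitor, had a log2 difference of -0.38 (95% interval -0.93 to 0.17) over the 11 arrays with a value, with BRAFV600E between 5.57 and 6.94 and Cre control between 6.34 and 7.23. Clca1, the mucus protease, differed by -0.18 (95% interval -0.76 to 0.39). Without BRAFV600E replicate 1 these differences were -0.16 for Spink4 and -0.0041 for Clca1, and without replicate 5 that of Clca1 was -0.37. The Cre control arrays of Clca1 lay close together, from 5.87 to 6.44, whereas the BRAFV600E arrays spread from 5.09 to 6.92, on both sides of them. Tpsg1, the tryptase, differed by -0.06 (95% interval -0.48 to 0.36), with BRAFV600E arrays from 1.45 to 2.50 around controls from 1.65 to 2.15.

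**Figure D2:**
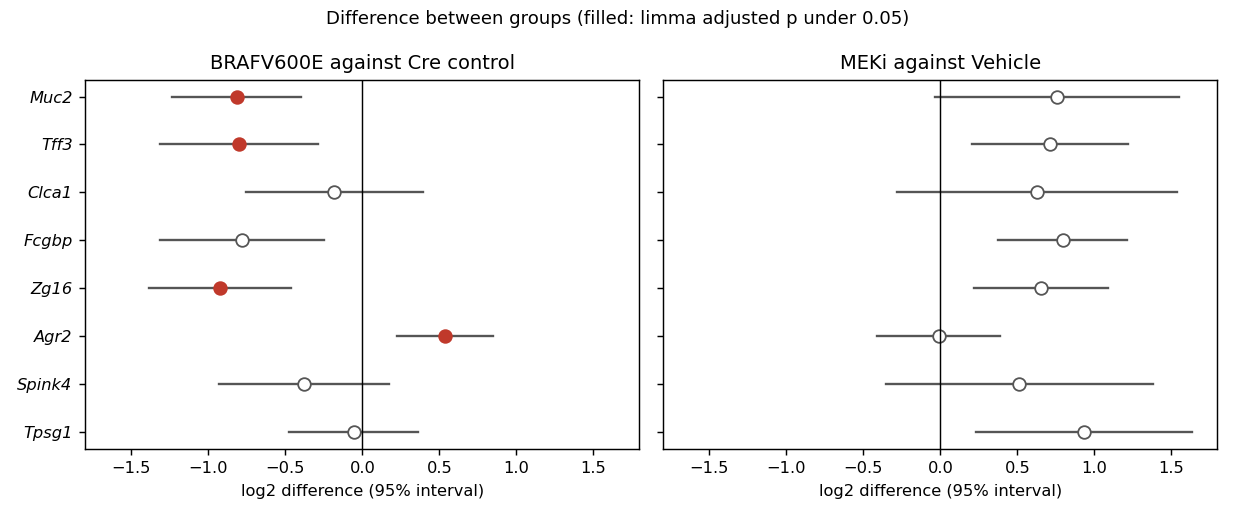
Log2 difference between groups for each mucus gene, with its 95% interval, in both comparisons. Filled points passed the limma test: Muc2, Tff3 and Zg16 (lower) and Agr2 (higher) in BRAFV600E tissue, and none in MEKi tissue, where all but Agr2 lie to the right of 0.

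Slide and group were partly mixed in this experiment. Slide 1 held all 6 Cre control arrays with BRAFV600E replicates 1 and 2, and slide 2 held BRAFV600E replicates 3 to 6. Within slide 1 the differences were larger than over all arrays for each of the 7 genes that lay lower: -1.41 for Zg16, -1.27 for Fcgbp, -1.26 for Spink4, -1.23 for Tff3, -1.17 for Muc2, -0.52 for Tpsg1 and -0.39 for Clca1. For Zg16, Fcgbp, Tff3, Muc2 and Tpsg1, both BRAFV600E arrays of slide 1 lay under all 6 controls, which gives an exact permutation p of 0.0357, the smallest that 28 splits allow. Agr2 differed by 0.63 within slide 1, and both its BRAFV600E arrays lay above all controls. The share of all genes that separate in this way within slide 1 was not counted, so these members cannot be set against it. With slide as a block, limma called Muc2 (adjusted p of 0.0135), Tff3 (0.0285), Fcgbp (0.0236), Zg16 (0.0054) and Spink4 (0.0465), while Agr2 had an adjusted p of 0.0773. The count of all genes called with this block is given in the closing section. The Spink4 value within slide 1 rests on a single BRAFV600E array.

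The calls differed between scalings. Under quantile normalization, Muc2 (-0.97, limma adjusted p of 0.0016) and Fcgbp (-0.74, 0.0153) were called, while Zg16 (-0.38, 0.197), Tff3 (-0.50, 0.098) and Agr2 (0.32, 0.228) were not. With no scaling between arrays, the median over all genes shifted to 0.79. Against that shift, Muc2 (-0.01), Tff3 (0.01), Fcgbp (0.03) and Zg16 (-0.12) stayed near 0 in raw signal, Agr2 stood at 1.35, and Clca1 (0.63), Spink4 (0.37) and Tpsg1 (0.75) turned to the other side of 0. All differences here are therefore relative to the bulk of genes on the same array.

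**Figure D3:**
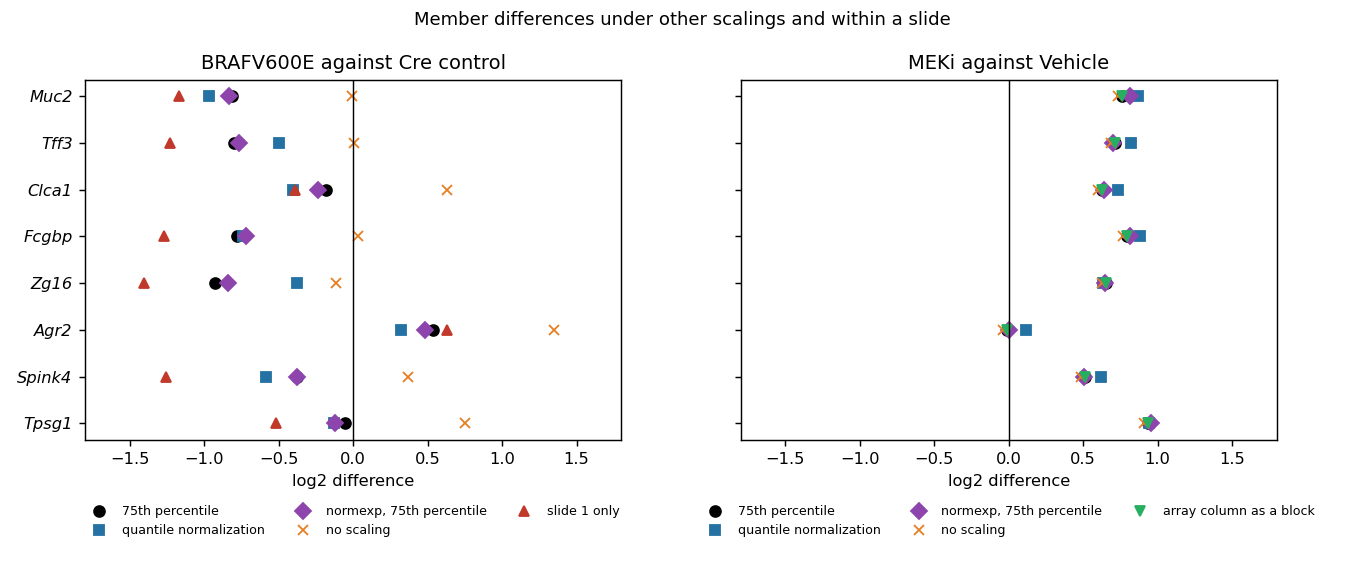
Log2 difference of each mucus gene under other scalings and within a slide (symbols), in both comparisons. In BRAFV600E tissue the values without scaling lie to the right of the others by about the shift of all genes, 0.79, and the values within slide 1 lie farthest to the left for 6 of the 7 genes that were lower. In MEKi tissue the symbols nearly coincide.

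A difference between 2 members within an array does not depend on how arrays are scaled by a constant, so all 28 pairs were compared in this way. A response that changes with brightness would stay in these differences. Cre control replicate 4 had the highest 75th percentile of its group, 1258. It also had the lowest Zg16 (8.27), Tff3 (7.56), Muc2 (6.69) and Spink4 (6.34) of that group. Fcgbp, Clca1, Agr2 and Tpsg1 were lowest on other Cre control arrays. In BRAFV600E the array with the highest 75th percentile, replicate 4 (1554), was neither highest nor lowest for Zg16, Tff3, Muc2 or Spink4. Replicate 6, at 1447, had the highest Zg16 (8.27), Tff3 (7.90), Muc2 (6.87) and Spink4 (6.94) of that group. The part of such a response in the pairs was not tested. In BRAFV600E tissue 11 of the 28 pairs differed from Cre control (exact permutation test, adjusted over the 28 pairs). Zg16 minus Agr2 was 3.76 ± 0.38 (SD, n = 6) in Cre control and 2.30 ± 0.54 (SD, n = 6) in BRAFV600E, a change of -1.46 with no overlap (exact permutation p = 0.00216, adjusted p = 0.0152). Muc2 minus Agr2 changed by -1.35 and also did not overlap, with the same p. Tff3 minus Agr2 changed by -1.34 (adjusted p = 0.0202 from the exact permutation test) and Fcgbp minus Agr2 by -1.32 (0.0202).

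Tpsg1 parted from the same genes. Zg16 minus Tpsg1 changed by -0.87, Muc2 minus Tpsg1 by -0.76, Tff3 minus Tpsg1 by -0.74 and Fcgbp minus Tpsg1 by -0.72, each with an adjusted p of 0.0202 or less in the exact permutation test. Spink4 took part in 3 passing pairs, with Tff3, Zg16 and Agr2. Clca1 took part in none of them. No pair among Muc2, Tff3, Fcgbp and Zg16 passed, which does not show that these genes moved alike. Under quantile normalization 7 pairs passed. Within slide 1 there are so few splits that most of the 28 pairs would have to reach the smallest p for any to pass, and 0 did.

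**Figure D4:**
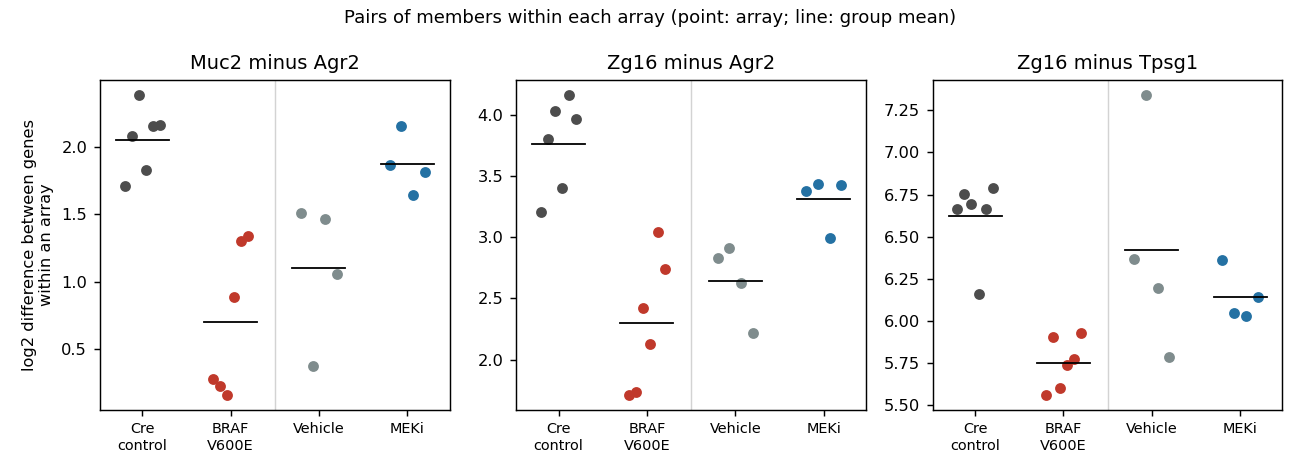
Log2 difference between 2 members within each array (points) by group, with the group mean as a line, for Muc2 minus Agr2, Zg16 minus Agr2 and Zg16 minus Tpsg1. In all 3 panels every BRAFV600E array lies under every Cre control array, and MEKi arrays lie above Vehicle arrays in the first 2.

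After MEK inhibition, 0 of the 8 mucus genes passed the limma test, against 1.97% of the 19269 genes tested. An unadjusted p under 0.05 was found for 4 of the 8 and for 3153 of all 19269 genes. Of the 8 genes, 7 had a higher mean in MEKi than in Vehicle. Their median log2 difference was 0.68, and that of all genes tested was 0.04. For 3 of the 8, Fcgbp, Zg16 and Tpsg1, every MEKi array lay above every Vehicle array, where 12.2% of all genes had groups that did not overlap.

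Fcgbp measured 7.83, 8.00, 7.51 and 7.56 in the MEKi arrays and 7.08, 6.84, 7.22 and 6.59 in the Vehicle arrays. The log2 difference was 0.79 (SE 0.18, 95% interval 0.38 to 1.21), with a limma adjusted p of 0.0753 and an exact permutation p of 0.0286, the smallest that 4 against 4 arrays allow. Both of its probes gave nearly the same difference, 0.79 and 0.80.

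Zg16 measured 8.89, 8.93, 8.31 and 8.45 in MEKi and 7.97, 8.03, 8.24 and 7.72 in Vehicle. The groups were separate by a narrow margin, with a log2 difference of 0.65 (SE 0.19, 95% interval 0.22 to 1.09), a limma adjusted p of 0.14 and an exact permutation p of 0.0286. Under quantile normalization Zg16 (0.63, limma adjusted p of 0.0431) and Fcgbp (0.88, 0.0413) were both called.

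Tff3 measured 8.07, 8.04, 7.56 and 7.86 in MEKi and 7.36, 6.79, 7.63 and 6.89 in Vehicle. A single Vehicle array, replicate 3, reached into the MEKi range, and the log2 difference was 0.71 (95% interval 0.21 to 1.22, limma adjusted p of 0.161). Muc2 measured 7.37, 7.66, 6.96 and 6.83 in MEKi and 6.65, 5.49, 7.08 and 6.56 in Vehicle. The difference of 0.76 (95% interval -0.03 to 1.55, limma adjusted p of 0.327) included Vehicle replicate 2, by far the lowest array, and was 0.44 without it.

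Tpsg1 measured 2.53, 2.89, 2.28 and 2.31 in MEKi and 1.61, 0.68, 2.05 and 1.93 in Vehicle, with no overlap. Its difference of 0.93 (95% interval 0.23 to 1.63, limma adjusted p of 0.182, exact permutation p of 0.0286) had Vehicle replicate 2 at the bottom as well and was 0.64 without it. Spink4 differed by 0.51 (95% interval -0.35 to 1.38), and by 0.13 without that same array, whose Spink4 level of 5.62 lay under the other 3 at 6.82, 7.46 and 7.19. Clca1 differed by 0.63 (95% interval -0.28 to 1.54), and by 0.22 without MEKi replicate 2, which at 7.27 stood above the other MEKi arrays at 5.85, 5.67 and 5.42.

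Agr2 had almost equal means in the 2 groups. It measured 5.51, 5.50, 5.32 and 5.02 in MEKi and 5.15, 5.12, 5.62 and 5.50 in Vehicle. The log2 difference was -0.01 (95% interval -0.41 to 0.39), so a change of the size seen in BRAFV600E tissue, 0.54, lies outside this interval in either direction. Relative to Agr2, Fcgbp was higher in MEKi by 0.80, Muc2 by 0.77, Tff3 by 0.72 and Zg16 by 0.66, each without overlap (exact permutation p = 0.0286). Agr2 minus Tpsg1 differed by -0.94, also without overlap and with the same p. The adjusted p over the 28 pairs was 0.16 for these 5, and 0 pairs passed. With 4 against 4 arrays most of the 28 pairs would have to reach the smallest p for any to pass.

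Several other features moved with these groups, and their part in the results was not tested. Vehicle replicate 2 carried exocrine pancreas transcripts: the summed level of the 8 pancreas genes, as multiples of the 75th percentile, was 1786 on that array, against 3.81 to 4.66 in MEKi. All 4 MEKi arrays and 2 of the 4 Vehicle arrays had Y-linked signal, as had 3 of 6 Cre control and 4 of 6 BRAFV600E arrays. A fit that also held Y-linked signal gave MEKi differences of 0.68 for Tpsg1, 0.56 for Fcgbp, 0.52 for Zg16, 0.38 for Tff3, 0.34 for Muc2 and 0.17 for Spink4. MEKi and Vehicle shared slide 3 but lay in different rows of it, so row and treatment cannot be told apart.

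The tissue itself was checked with markers. Epithelial markers such as Epcam were bright in every group, with summed levels of 6 genes of 509 to 781 in Cre control, 622 to 841 in BRAFV600E, 665 to 865 in MEKi and 756 to 1026 in Vehicle. In BRAFV600E 2 of them rose, Krt18 by 0.87 and Cdh1 by 0.61. All 6 smooth muscle markers had a higher mean in BRAFV600E and 2 were called, Des (0.94, with a further probe at -1.78) and Actg2 (0.71), with summed levels of 70.3 to 160 against 71.2 to 107 in Cre control, and 0 were called within slide 1. The summed level of 8 genes of the proximal small intestine was 503 to 951 in BRAFV600E, 785 to 1320 in Cre control, 751 to 1049 in MEKi and 718 to 881 in Vehicle. Of these 8, Cyp2b10 fell by 3.53 and Gata4 rose by 0.49 in BRAFV600E, and Cyp2b10 rose by 1.90 in MEKi, a call lost with array column as a block. The colon genes Hoxb13 and Hoxd10 were too dim to be tested in either comparison, whereas Car1, Car4, Aqp8, Muc3 and Saa1 were tested. Of 6 markers of the distal small intestine, 5 had a lower mean in BRAFV600E and 3 were called lower, Cubn, Cyp2c55 and Mep1a. Slc10a2 differed by -0.03 and Fabp6 by 0.83, and neither was called. The summed level of the 6 was 1.19 to 7.75 in BRAFV600E, 29.4 to 41.4 in Cre control, 23.2 to 76.7 in MEKi and 2.76 to 40.0 in Vehicle. In MEKi limma called 0 of them, with 4 higher and 2 lower in mean. Mep1a, the metalloprotease meprin alpha, had a mean level of 3.18 in Cre control and 0.18 in BRAFV600E. Where along the gut each sample was cut was not given, and its part in the mucus gene values was not tested.

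Paneth cells, another granule-filled secretory cell type of the small intestine, also had markers that fell. Of 8 Paneth genes tested, 5 fell and none rose in BRAFV600E, with a median log2 difference of -2.05, and their summed level was 240 to 814 against 864 to 1789 in Cre control. The matrix protease Mmp7 fell by 2.10 and the lectin Itln1 by 2.25. In MEKi tissue limma called 0 of these 8, 2 had an unadjusted p under 0.05, and 7 had a higher mean. Of 10 enterocyte genes, 8 had a lower mean in BRAFV600E (median -0.42). An unadjusted p under 0.05 was found for 5 of the 10 and for 5743 of all 19070 genes. The summed level of the 10 was 994 to 2191 against 1654 to 2884 in Cre control. Limma called 1 of them, Alpi, which rose by 1.84, and with slide as a block it called 3 lower and 1 higher.

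Mast cell markers were checked because of Tpsg1. Of 11 genes, Cpa3, Tpsab1 and Ms4a2 were too dim to be tested in either comparison, and the summed level of all 11 was 2.32 to 4.59 in Cre control, 1.60 to 2.47 in BRAFV600E, 1.35 to 2.37 in Vehicle and 1.88 to 2.56 in MEKi. In BRAFV600E limma called 0 of the 7 tested. Of these, 2 had an unadjusted p under 0.05, against 5743 of all 19070 genes. In MEKi 1 of the 8 tested, Kit, rose, by 0.75, a call lost with array column as a block.

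Other genes of goblet cells were followed in 6 lists. Of 10 transcription factors that steer goblet cells, 1 rose in BRAFV600E and none fell (median difference -0.16). The gene that rose was Creb3l1 (0.58, limma adjusted p of 0.0253), a membrane-bound factor of the secretory pathway. Atoh1, the factor that sets the secretory fate, differed by -0.32 (0.248) and Spdef, which drives goblet maturation, by -0.29 (0.221). Foxa1 (1.03, limma adjusted p of 0.0534), Klf4 (1.17, 0.261) and Gfi1 (-0.56, 0.0997) were not called either. Of the 10 factors, 4 had a higher mean and 6 a lower one. In MEKi tissue Gfi1, a factor of the secretory lineage, rose by 0.88 (limma adjusted p of 0.0338), and the other 9 were not called. Creb3l1 was not called within slide 1, and the MEKi call was lost with array column as a block, without scaling and when certain single arrays were left out. Of 19 genes for mucin folding and granule secretion, limma called 0 in BRAFV600E. There 4 had an unadjusted p under 0.05, against 5743 of all 19070 genes. In MEKi 1 of the 19, Rep15, rose, by 0.95, a call lost in the same settings as that of Gfi1. Xbp1 and Ern2, which serve the unfolded protein response of secretory cells, differed by -0.14 and 0.05 in BRAFV600E.

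Of 20 genes that serve the adding of sugars to mucins or their supply, 5 rose in BRAFV600E and none fell (median difference 0.16). They included Gcnt3 (1.15) and C1galt1c1 (0.55), which serve the branching and extension of mucin sugars. The others were Galnt4 (0.76) and Galnt7 (0.46), which act on the first sugars, and the sulfotransferase Chst4 (1.12). Gcnt3 was the single gene of this list called in MEKi, where it fell by 1.69 (SE 0.18, limma adjusted p of 0.0067), a call lost with array column as a block. Gcnt3 levels were 0.98 to 2.44 in Cre control and 2.56 to 3.34 in BRAFV600E, and 2.47 to 2.74 in Vehicle and 0.64 to 1.31 in MEKi, without overlap in either comparison. Under quantile normalization 3 genes of this list rose and 1 fell, and within slide 1 the counts were 2 and 1 (4 and 2 with slide as a block).

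Of 9 other mucins tested, Muc4, a membrane mucin, rose by 1.25 and Muc16, another, fell by 2.01 in BRAFV600E, while limma called 0 in MEKi (2 had an unadjusted p under 0.05). Neither mucin was called within slide 1, the call of Muc4 was lost under quantile normalization, and that of Muc16 with slide as a block. The gel-forming mucins Muc5ac (-0.15, limma adjusted p of 0.56) and Muc5b (0.57, 0.205) were dim, with Cre control means of -2.25 and -3.36. Of 25 further goblet products and markers, 4 fell and 2 rose in BRAFV600E. The genes that fell were the pentraxins Mptx1 (-3.61) and Mptx2 (-3.40) and the chemokines Ccl6 (-2.08) and Ccl9 (-1.63), which are also made by other cell types, and Cdc42ep5 (0.81) and Klk1 (0.65) rose. With slide as a block and within slide 1, 5 genes of this list were called lower and 0 higher, so both of the rises were lost. In MEKi Lypd8 (0.91), a protein that keeps bacteria off the epithelium, and Lrrc26 (1.02), a channel subunit of goblet cells, rose, and 0 were called with array column as a block or without scaling. Of 5 genes that cut or crosslink mucus, the transglutaminase Tgm2 fell by 1.21 in BRAFV600E and rose by 1.32 in MEKi, and Mep1a was the other gene that fell in BRAFV600E. The MEKi call of Tgm2 was likewise lost with array column as a block and without scaling. Most calls over all genes were lost with that block, so such a loss is not particular to the genes named here.

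**Figure D5:**
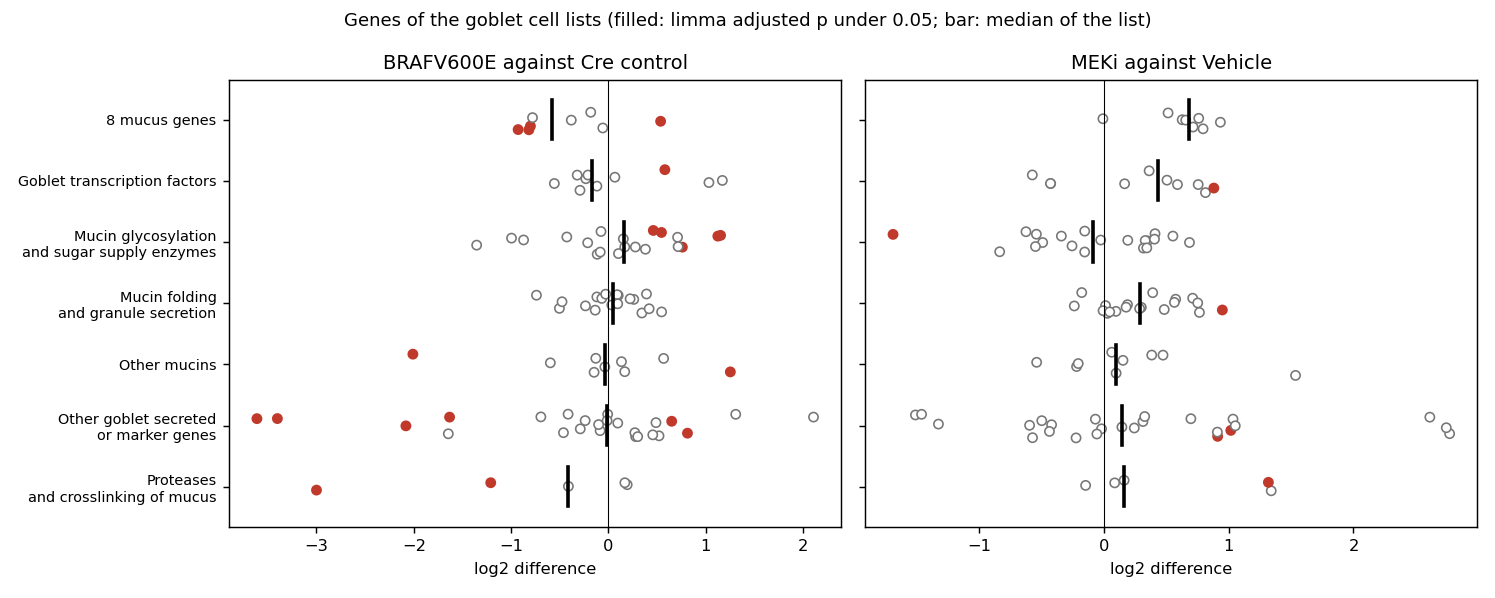
Log2 difference of every tested gene (points) of the mucus genes and of 6 lists of goblet cell genes, in both comparisons, with the list median as a bar. Filled points passed the limma test. The median of the 8 mucus genes is -0.58 in BRAFV600E and 0.68 in MEKi, and the list medians lie between -0.41 and 0.16 in BRAFV600E and between -0.09 and 0.43 in MEKi.

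The members varied together also among mice of 1 group. After the group mean was taken from each array, Fcgbp and Zg16 correlated at r = 0.92 across the 20 arrays, Tff3 and Zg16 at 0.91, Tff3 and Fcgbp at 0.87 and Spink4 and Tpsg1 at 0.83. Agr2 stood apart from them, with r between -0.07 and 0.40 to the other members, and so did Clca1, with r between 0.07 and 0.34. These are descriptions. The parts of shared scaling, of a response that changes with brightness and of differing makeup of the gut pieces were not tested. Only the group mean was taken out, so any difference between the 2 slides of BRAFV600E stayed in these values. Zg16 averaged 7.24 on slide 1 and 7.96 on slide 2 in BRAFV600E, and Tpsg1 1.51 and 2.20. Vehicle replicate 2, low for Spink4 (5.62) and Tpsg1 (0.68), was also included. The part of slide and of that array was not tested.

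The 5 genes outside the 8 that follow tracked Muc2 most closely, ranked among 18391 genes by the lower of Pearson's r over the 12 arrays of the first comparison and over the 8 of the second. They were Plbd1 (r = 0.95 and 0.90), Aspg (0.88 and 0.90), Mep1a (0.88 and 0.96), Tmem219 (0.87 and 0.87) and C1qtnf12 (0.87 and 0.92), with Spearman's rho between 0.71 and 0.89. Without the 2 arrays farthest from the median of Muc2, r stayed between 0.87 and 0.94 in the first comparison. In the second it fell to 0.35 for Plbd1, 0.49 for C1qtnf12, 0.68 for Tmem219, 0.69 for Mep1a and 0.70 for Aspg. All 5 relations there thus rest in part on the outer arrays, most of all those of Plbd1 and C1qtnf12. These values include the differences between groups. Mep1a is 1 of the 5 genes listed as cutting or crosslinking mucus and is also among the distal small intestine markers. Of the members, Tff3 was closest to Muc2, at rank 19 (r = 0.84 and 0.88), whereas Agr2 ran against it in the first comparison and with it in the second (r = -0.69 and 0.57).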

How the data were processed

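Labelled RNA from intestinal tissue of 20 mice was hybridized to 1-colour arrays. Per the file headers and labels, the authors extracted each scan with Agilent Feature Extraction 10.5.1.1 and deposited a background-subtracted processed intensity per spot on a linear scale, not normalized between arrays, with a yes or no mark for saturation, outlier status and signal above background. The deposited series matrix held the same intensity as its score of each spot. Control and outlier spots were left out. Here log2 of the intensity minus the 75th percentile of the array was used, copies of a probe were averaged, and probes were named through RefSeq tables (34811 by accession, 9325 by symbol, 296 by synonym, 12173 unnamed). The brightest probe stood for a gene. Clca1 was matched by accession, since an older symbol of the same spelling belongs to Clca3a1.

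Groups came from the source labels. The treatment text of the labels, a statin given to female mice, is the same for all arrays, fits no group and was not used. Genes well above background on at least 6 of 12 or 4 of 8 arrays were tested with limma 3.58.1 (R 4.3.3; lmFit, eBayes, no covariates), each comparison on its own arrays, and called at an adjusted p under 0.05. Single members and pairs were tested with exact permutation tests. Scripts were tested on simulated data. The members, lists and tests were chosen with earlier results of these data known. The named genes were the 8 members, the genes of the fixed lists called in either comparison (with counts), further list genes given as values for their role, and the 5 genes most like Muc2. Alternatives were other scalings and background corrections, filters and probe rules, array weights, a Y-linked covariate, slide or column blocks, and leaving out each array.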

Additional observations from a re-analysis of the deposited data

Results flagged for a closer look

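Tpsg1 in Cre control replicate 1, at 1.65, stood apart from the other 5 Cre control arrays, the nearest of which was at 2.02, with a gap of 0.738 of the whole range. It was the single outlier among the 32 member and group combinations examined, where chance flags about 5% of groups.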

How the results depend on the processing

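For BRAFV600E against Cre control, the direction of Muc2 and Zg16 was the same under all 24 alternatives, with a call in 23 and 21 of them, and that of Agr2 was the same under all 24, with a call in 13. Tff3 was called in 10 of 24 and Fcgbp in 9 of 24. The count of mucus genes called, 4 in the report, was 2 with no scaling and 2 under quantile normalization, and 2 to 5 when 1 array was left out (2 without Cre control replicate 2, 3 or 5 or BRAFV600E replicate 2, 3 or 4). The count of all genes called, 2374, became 9341 with no scaling, 4655 with normexp, 3591 over every probe, 3753 with array weights, 1534 with slide as a block, 734 on slide 1 only and 1444 to 2863 when 1 array was left out, lowest without Cre control replicate 3 (1444) and replicate 2 (1528). With no scaling the sign turned for Tff3 (0.0074), Clca1 (0.63), Fcgbp (0.029), Spink4 (0.37) and Tpsg1 (0.75), all against a shift of 0.79 of all genes (normexp shifted them to -0.13), and Tpsg1 also turned without BRAFV600E replicate 1 (0.024) or 2 (0.045), with a range of -0.16 to 0.045 when 1 array was left out. Of the 28 pairs, 11 passed in the report, 7 under quantile normalization, 0 on slide 1 only and 9 to 15 when 1 array was left out.

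For MEKi against Vehicle, the direction of the 7 higher members was the same under all 19 alternatives, but the covariate for Y-linked signal and single arrays changed their size. The count of mucus genes called, 0 in the report, was 2 under quantile normalization (Fcgbp and Zg16), 2 with normexp and quantile normalization and 1 with array weights. All genes called, 380, became 73 with no scaling, 235 with no filter on dim probes, 1215 with array weights, 53 with the Y-linked covariate, 16 with array column as a block and 76 to 374 when 1 array was left out (76 to 188 without MEKi replicate 1, 3 or 4 or Vehicle replicate 1, 3 or 4). Agr2, at -0.01, changed sign under quantile normalization (0.12), normexp (0.0034), both together (0.10), and without MEKi replicate 4 (0.096), Vehicle replicate 3 (0.08) or Vehicle replicate 4 (0.042), and ranged from -0.085 to 0.096 when 1 array was left out. Of the 28 pairs 0 passed in any setting run, a count that the small number of splits all but fixes and that says nothing about stability. The cause of these changes was not tested. No paired analysis was possible because replicate numbers were given in accession order and only name the arrays. With array column on slide 3 as a block the 8 member differences kept their values and 0 were called. As only 16 of all genes were called with that block, a call lost under it is not particular to a gene.

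The brightness of the members leaves background as no limit. The number of arrays is: 4 against 4 gives at best an exact p of 0.0286.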
